A study of Mus musculus with 9 samples.

Results

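RNA recovered with WDR5 and input RNA were examined for 8 genes that code for CDK inhibitors, the p53 protein and targets of p53, among the 24132 gene symbols measured. The genes are the INK4 inhibitors Cdkn2a, Cdkn2b and Cdkn2c, the CIP/KIP inhibitors Cdkn1a and Cdkn1b, the p53 gene Trp53, and the p53 targets Mdm2 and Ccng1. They were selected by name, and Cdkn2a was chosen by its measured RPKM, which was higher in the F266A input and in 1 F266A IP than elsewhere, so its values are given as a description without a test. RPKM are read numbers scaled by transcript length and by the mapped reads of the library.

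WDR5 is a subunit of the MLL complexes that methylate histone H3 at lysine 4, and the study asked which RNAs of mouse embryonic stem cells (ESCs) it binds. V6.5 ESCs (129/B6 F1 hybrid, feeder-free with LIF) were infected with a lentivirus that carried no tagged WDR5 (empty vector), FLAG-HA-tagged human WDR5 WT, or FLAG-HA-tagged human WDR5 F266A, a mutant in an RNA-binding surface whose construct also has a shorter N terminus. Each tagged line was an isolated clone with near-endogenous expression of the tagged protein, and depletion of the endogenous Wdr5 is not described for these lines. The effect of the construct and that of the clone cannot be told apart. After cross-linking with formaldehyde, RNA was purified through the FLAG tag and then the HA tag (RIPiT-seq), with 2 IP libraries and 1 input library per line, 9 libraries in all. The inputs have no replicate, and the labels do not say that the IPs came from separate cultures, so p-values measure the spread between these libraries, which may be technical.

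INK4 proteins bind CDK4 and CDK6 and hold back entry into S phase, and CIP/KIP proteins bind cyclin-CDK complexes more broadly. Cdkn2a codes for p16Ink4a and, from another start and reading frame, for p19Arf, which blocks MDM2. MDM2 is the ubiquitin ligase that marks p53 for degradation, and p53 in turn activates Mdm2, Cdkn1a and Ccng1, the gene of cyclin G1, so their RNA is a common readout of p53 activity. The Cdkn2a locus is kept silent by Polycomb proteins in ESCs.

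The depth estimated from the smallest RPKM steps was 13400000 to 50200000 mapped reads per library. The 10 ESC markers summed to between 613 and 920 RPKM in every library, and the 10 fibroblast markers to between 0.736 and 1.92. Mouse Wdr5 itself was listed at 5.85 to 12.9 RPKM, and how far reads of the human construct enter that row is not known. F266A IP replicate 1 stood apart from both other libraries of its line. The 4 Y-linked genes summed to 0.0383 RPKM in it, against 4.43 in its input and 7.21 in replicate 2, while the empty vector libraries held 7.42 to 9.50 and the WT libraries 0.182 to 0.324. The 20 primitive endoderm markers gave a sum of 76.2 RPKM for the F266A input, 95.9 for replicate 2 of its IPs and 37.1 for replicate 1, the last within the 35.1 to 45.3 of the empty vector and WT libraries. Most of that sum came from Sparc, Lamc1, Lamb1 and Lama1, which every library held, and 9 of the 20 markers were higher in replicate 1 than in any of these 6 libraries. Among the 9, Dab2 reached 0.916 RPKM (at most 0.261 in the 6), Col4a2 1.51 (at most 1.06) and Cubn 0.167 (at most 0.0648), all below the other F266A libraries. Ttr and Afp were at 0 in all 9 libraries. Results that rest on the F266A IPs are therefore given with and without replicate 1. The cause of the discrepancy was not tested.

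**Figure D1:**
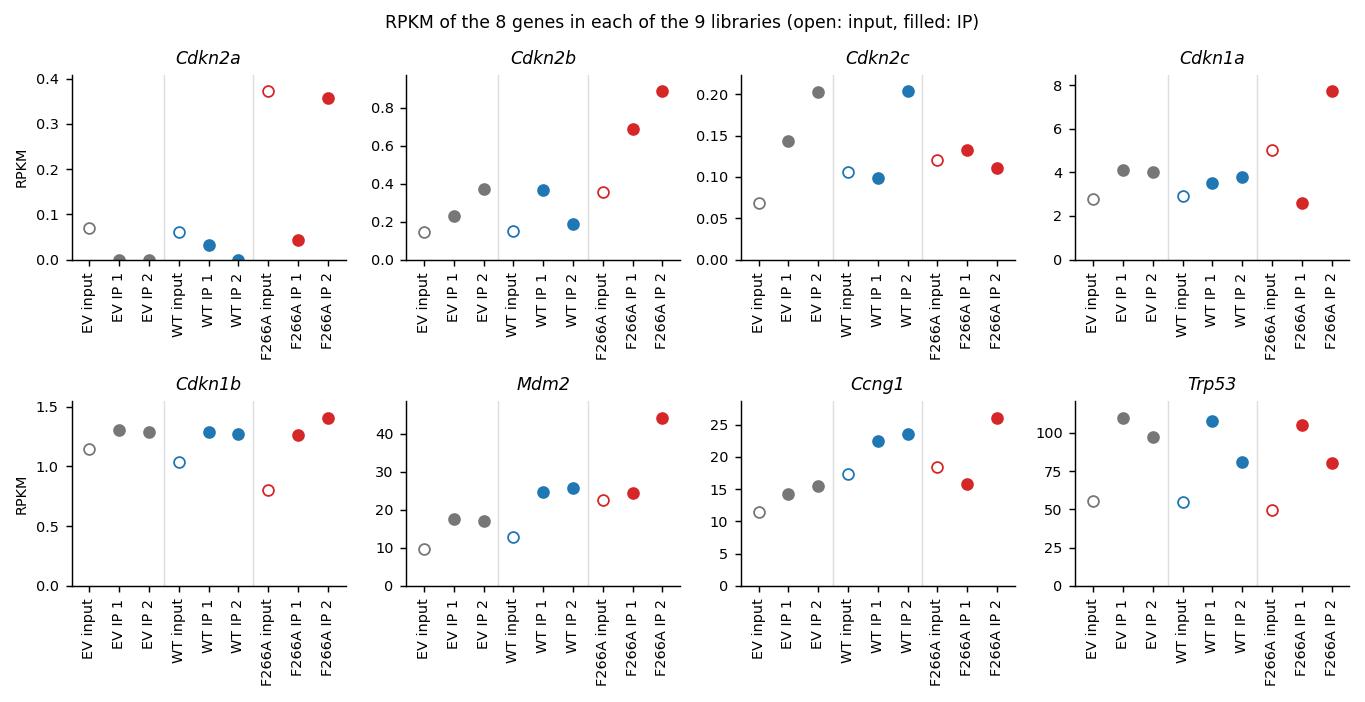
RPKM of the 8 genes (1 panel each, linear axes from 0) in the 9 libraries, with open circles for inputs, filled circles for IPs, grey for the empty vector (EV), blue for WT and red for F266A; each point is 1 library. Of the 8 genes, 5 reached an RPKM of 1 in 2 or more libraries. F266A IP 2 holds the highest IP value for 4 of these 5, beside 17.9% of all genes at that level. F266A IP 1 lies lowest of the 6 IPs for Cdkn1a and Cdkn1b, beside 17.3%. Cdkn2a was chosen for its F266A values and is not counted.

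Cdkn2a, Cdkn2b and Cdkn2c lay below 1 RPKM in every library. Cdkn2a (chr4:88920377-88940557, minus strand, mm9) was listed at 0.0697 RPKM for the empty vector input and at 0 for both IPs of that line. The WT line gave 0.0608 before purification (input) and 0.0322 and 0 after it (IP replicates 1 and 2). The F266A line gave 0.372 before purification and 0.0430 and 0.356 after it. The F266A input and F266A IP replicate 2 thus stood above the other 7 libraries, and F266A IP replicate 1 lay among the latter. In whole reads these values come to about 16 for the input and 10 for IP replicate 2 of the F266A line, and to 9 over the other 7 libraries, 35 reads in all. The values lay within 0.131 of a whole read, and intervals from such counts would cover counting error only. The row carries 1 value for the gene, so p16Ink4a and p19Arf transcripts cannot be told apart.

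Both libraries with most of the Cdkn2a reads also held the highest sums of primitive endoderm markers. Gata4, a transcription factor of that lineage, reached 1.90 RPKM in the input of the F266A line and 0.695 and 2.69 in its IPs (replicates 1 and 2), against at most 0.171 in the other 6 libraries. A minimum expression (RPKM of 1 or more, in 2 or more libraries) left 9787 genes to test with limma, in which a gene was called at a Benjamini-Hochberg adjusted p under 0.05. Of these, the genes whose log2 (RPKM + 1) followed that of Cdkn2a most closely over the 9 libraries were Cubn (Pearson r = 0.977), Zfp866 (0.971), Col4a1 (0.950), Glg1 (0.949) and Srgn (0.948). Cubn, an endocytic receptor, and Col4a1, a basement membrane collagen, belong to the endoderm markers. Cdkn2a was chosen for being high in the F266A input and IP replicate 2, so a close match mainly picks genes that are high in the same pair of libraries. Cubn and Srgn reached an RPKM of 1 only in that pair, and Col4a1 only in F266A libraries. They thus passed the expression minimum only through libraries of this line, and their match is no support for a link. These correlations are a description over 9 libraries that share lines and depth, and rest on 35 reads of Cdkn2a. Cdkn1a followed Cdkn2a less closely (r = 0.718), Mdm2 (0.473) and Ccng1 (0.374) less still, and Cdkn1b (-0.418) and Trp53 (-0.512) ran the other way. Fewer cells of a type and less RNA per cell cannot be told apart in such bulk samples, and whether endoderm-like cells carried the Cdkn2a reads was not tested.

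**Figure D2:**
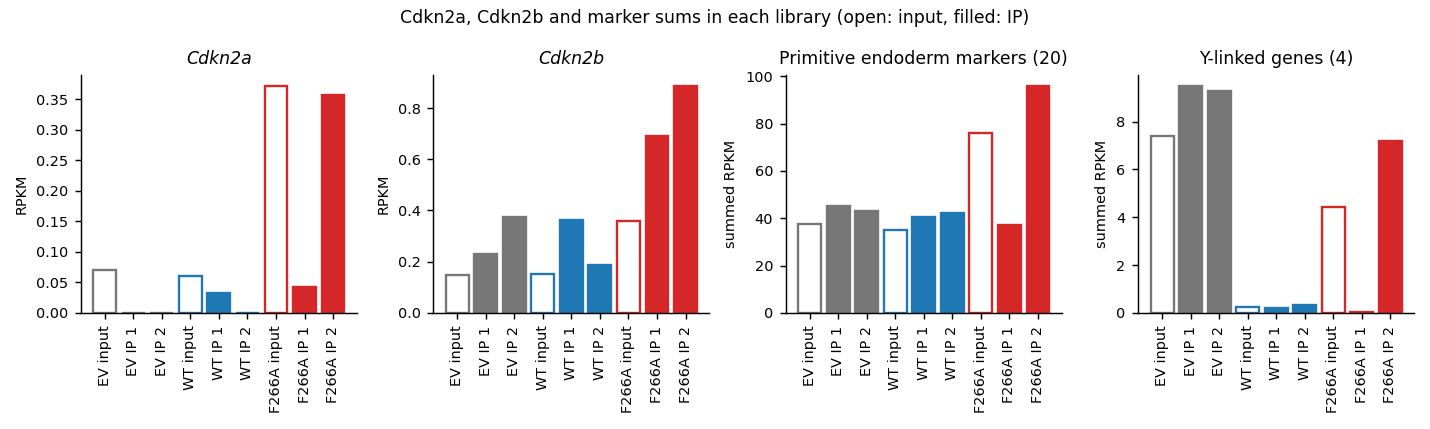
RPKM of Cdkn2a and Cdkn2b and summed RPKM of 20 primitive endoderm markers and 4 Y-linked genes, 1 bar per library (open for inputs, filled for IPs, EV for empty vector). Cdkn2a and the endoderm sum are highest in the F266A input and F266A IP 2, whereas F266A IP 1 has an endoderm sum of 37.1 and a Y-linked sum of 0.0383.

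Cdkn2b (chr4:88952198-88956941, minus strand), which codes for p15Ink4b next to Cdkn2a, gave 0.148 RPKM for input and 0.228 and 0.373 for IPs of the empty vector line. The values were 0.150, 0.364 and 0.189 for the WT line and 0.359, 0.691 and 0.887 for the F266A line, in the same order. Both F266A IPs lay above every other library, unlike the pattern of Cdkn2a, for which F266A IP replicate 1 was low. Cdkn2b rested on about 7 to 30 reads per library and did not reach the RPKM minimum for the test. In a fit without that minimum, the F266A IPs exceeded the empty vector IPs by 0.46 ± 0.11 (log2 of RPKM + 1, SE), with a limma adjusted p of 0.193. Its neighbour Mtap, a methionine salvage enzyme beyond the INK4 genes, was at 2.68 to 4.56 RPKM, and of the 3 neighbours of Cdkn2a, Mtap alone passed the expression minimum. Dmrta1 was at no more than 0.0832 RPKM. Cdkn2c (chr4:109333481-109339794, minus strand), which codes for p18Ink4c, ranged from 0.0679 to 0.203 RPKM with no line apart from the others.

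Of 17 regulators of the Ink4-Arf locus, mostly Polycomb subunits, 12 passed the expression minimum. Cbx7, a Polycomb subunit that represses this locus, was at 17.1 to 27.8 RPKM, Suz12 at 11.6 to 16.0 and the methyltransferase gene Ezh2 at 9.51 to 16.3. None of the 12 was called between the F266A and the empty vector IPs, where 4.55% of all tested genes were called and the median difference of the list was -0.0012 beside -0.0050 over all. Likewise none was called between the WT and the empty vector IPs (0% of all tested genes), where the median was -0.09 beside 0.01. These Polycomb genes were thus expressed in every library.

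Cdkn1a codes for p21, the CDK inhibitor that p53 induces, and lies at chr17:29227924-29237667 on the plus strand. To describe sequence that p53 may recognise, the mm9 sequence from 3000 bases before to 1500 bases after the first annotated start of each member was searched, on both strands, for the p53 consensus, a pair of abutting elements of 10 bases, with at most 1 mismatch outside the core C and G. Sites were found at 2 of the 8 genes, and at 171 of 22378 protein-coding genes (0.764%) overall. The spacer and mismatch settings were narrowed after first hits were seen, and a match of letters is a description, not evidence of binding. The sites are printed with the match in capitals and 5 flanking bases on each side.
Cdkn1a, chr17:29227873-29227892, plus strand: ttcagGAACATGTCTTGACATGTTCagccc
Ccng1, chr11:40568964-40568983, minus strand: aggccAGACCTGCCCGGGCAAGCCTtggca
Ccng1, chr11:40568438-40568457, minus strand: ccggaACGCAAGCCCGGGCTAGTCTgcgcc
The Cdkn1a match is centred at position -42 from the first annotated start and at -2835 from the next one. The Ccng1 matches are centred at -160 and at 366 from the start, upstream of the gene and in an intron.

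Cdkn1a RNA of the empty vector line was at 2.78 RPKM before purification and 4.12 and 4.03 after it. The corresponding values were 2.93, 3.50 and 3.81 for WT and 5.05, 2.60 and 7.72 for F266A. The F266A IPs were thus the lowest and the highest of the 6 IPs, and the IPs of the other lines lay between them. On the log2 (RPKM + 1) scale replicate 2 of the F266A IPs exceeded replicate 1 by 1.28, and 0.398% of tested genes had a larger gap in that pair. The gap was 0.10 in the WT pair and -0.03 in the empty vector pair. With both F266A IPs, the F266A and empty vector IPs differed by 0.14 ± 0.33 (SE), with a limma adjusted p of 0.851. Without F266A IP replicate 1 the difference was 0.78 ± 0.12 with an adjusted p of 0.0196, and the remaining library was assumed to vary like those of the other groups. Without F266A IP replicate 2 the difference turned to -0.49 (adjusted p = 0.0832), so a single library sets its direction.

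Cdkn1b (chr6:134870419-134875531, plus strand), which codes for p27, a CDK inhibitor controlled largely at the protein level, was measured at 1.15 RPKM for input and 1.31 and 1.29 for IPs of the empty vector line. The same libraries of WT gave 1.04, 1.29 and 1.27, and those of F266A 0.799, 1.26 and 1.41. Cdkn1b thus showed nearly the same level in all 6 IPs, each above all 3 inputs, and none of its comparisons passed the test. For IPs against inputs the difference was 0.21 ± 0.08 (SE, limma adjusted p = 0.0611), which passed with pseudocounts of 0.1 and 0.01 (adjusted p = 0.0464 and 0.0414) and without the mean-variance trend (0.0494). Of the 3 further CDK inhibitor genes, Cdkn1c, an imprinted CIP/KIP gene, had inputs of 1.12 (empty vector), 0.751 (WT) and 1.62 RPKM (F266A). Its IPs held 1.72 and 1.62 for the empty vector, 2.39 and 1.39 for WT and 2.84 and 2.98 for F266A. It was higher in the IPs than in the inputs (0.54 ± 0.12, limma adjusted p = 0.0078), as were 56.4% of tested genes. None of the 3 was called between the F266A and empty vector IPs (4.55% of tested genes). Cdkn2d, an INK4 gene, had a mean of 1.56 RPKM. Cdkn3, a CDK phosphatase, lay between 1.27 and 1.77.

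Trp53 (chr11:69393861-69405375, plus strand) was abundant, with a mean RPKM above that of 99.3% of all gene symbols. Its inputs held 55.5 (empty vector), 54.6 (WT) and 49.7 RPKM (F266A). Its IPs held 109.9 and 97.2 for the empty vector, 107.7 and 81.0 for WT and 105.3 and 80.0 for F266A. Every IP lay above every input, and the IPs of the lines overlapped. A pseudogene, Trp53-ps, is annotated on chromosome 17, and reads could be shared with it. Between lines Trp53 differed by -0.17 ± 0.19 (F266A against empty vector IPs, limma adjusted p = 0.660) and by -0.14 ± 0.19 (WT against empty vector IPs, adjusted p = 0.942).

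Mdm2 (chr10:117125944-117147814, minus strand) was at 9.82 RPKM (empty vector), 12.8 (WT) and 22.5 (F266A) before purification. Its IPs held 17.4 and 17.1 for the empty vector, 24.8 and 25.8 for WT, and 24.5 and 44.2 for F266A (replicates 1 and 2). Both tagged lines lay above the empty vector in the inputs and in the IPs without overlap, and the F266A input was near the level of the WT IPs. The F266A IPs exceeded the empty vector IPs by 0.90 ± 0.23 (SE), which did not pass the test (limma adjusted p = 0.0748). Without F266A IP replicate 1 the difference was 1.31 ± 0.14 and passed (adjusted p = 0.0081), and without F266A IP replicate 2 it was 0.48 (adjusted p = 0.106). The F266A input exceeded the empty vector input by 1.12 ± 0.33 with an adjusted p of 0.187. These are single libraries whose spread is taken from the pairs of IPs, so the adjusted p of 0.0131 without either F266A IP reflects the smaller spread of the remaining pairs and the input difference itself is unchanged. The WT IPs exceeded the empty vector IPs by 0.52 ± 0.23 (adjusted p = 0.881).

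Ccng1 (chr11:40562054-40568813, minus strand) was at 11.5 RPKM (empty vector), 17.4 (WT) and 18.4 (F266A) before purification. Its IPs held 14.2 and 15.5 for the empty vector, 22.5 and 23.6 for WT, and 15.8 and 26.1 for F266A. The inputs and IPs of both tagged lines lay above those of the empty vector, F266A IP replicate 1 only narrowly. The WT IPs exceeded the empty vector IPs by 0.60 ± 0.21 with an unadjusted p of 0.0206 in limma and an adjusted p of 0.798. The F266A IPs exceeded them by 0.42 ± 0.21 (adjusted p = 0.298), by 0.77 ± 0.14 without F266A IP replicate 1 (adjusted p = 0.0279) and by 0.08 without replicate 2 (adjusted p = 0.809).

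**Figure D3:**
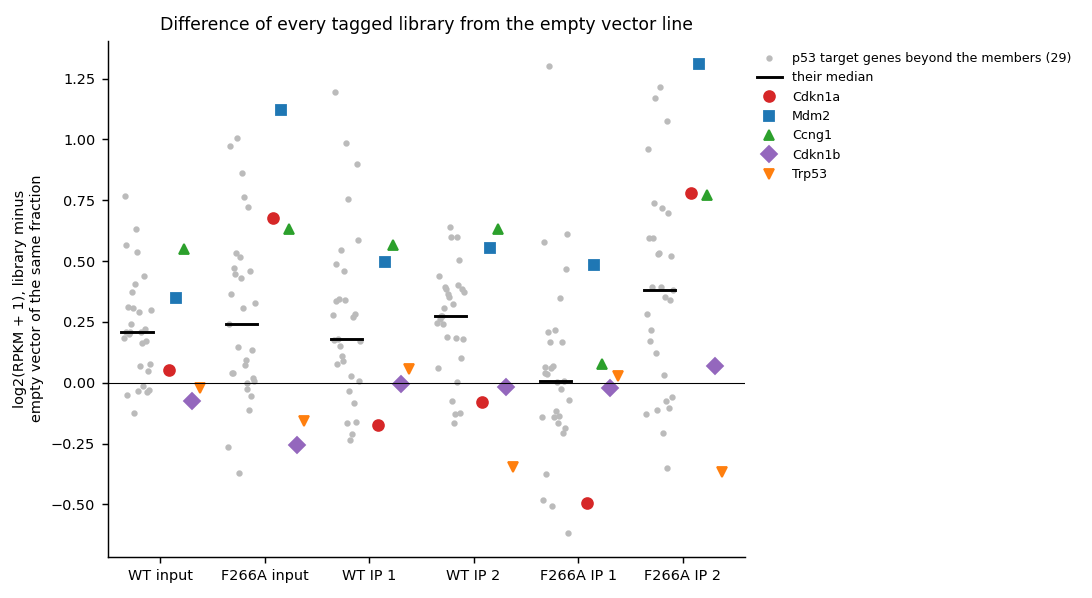
Difference in log2 (RPKM + 1) of each WT and F266A library from the empty vector library of the same fraction (for IPs, from the mean of both empty vector IPs). Grey points are 29 other p53 target genes with their median as a black bar, and coloured symbols are the 5 members that passed the expression minimum; Mdm2 lies above 0 in all 6 libraries, and the median of the p53 target genes is 0.01 in F266A IP 1 and 0.38 in F266A IP 2.

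Counted over the members, 0 of the 5 genes that passed the expression minimum was called between the F266A and the empty vector IPs, where 4.55% of the 9787 tested genes were called. The count was 0 of 5 between the WT and F266A IPs (1.16% of genes called) and between the WT and empty vector IPs (0% of genes, with 557 at an unadjusted p under 0.05). For the inputs it was 0 of 5 for F266A against empty vector (1.42%), and 0 of 5 for WT against F266A and WT against empty vector (0% each, with 1250 and 119 genes at an unadjusted p under 0.05). Without F266A IP replicate 1, Cdkn1a, Mdm2 and Ccng1 were called in the F266A against the empty vector IPs (4.9% of genes called). That fit holds 1 F266A IP, replicate 2, so its calls in the F266A IPs rest on a single library. In it Cdkn1a (-0.91) and Mdm2 (-0.78) were called as lower in the WT than in the F266A IPs (2%). Without F266A IP replicate 2 instead, these differences were 0.37 and 0.04, so a single library sets their direction. Without F266A IP replicate 1, Mdm2 was also called between the F266A and empty vector inputs, single libraries with the spread of the IP pairs (3.11%). These comparisons share the empty vector or the F266A libraries and are not independent of each other.

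Other p53 target genes were then taken as a list of 35, of which 29 passed the expression minimum. In the WT input 23 of the 29 lay above the empty vector input (50.1% of all tested genes did), with a median difference of 0.21 (log2 of RPKM + 1) beside 0.0004 over all tested genes. In WT IP replicates 1 and 2 the count was 23 and 25 above the mean of the empty vector IPs (51.9% and 52.9% of all), with medians of 0.18 and 0.28 beside 0.01 and 0.01. In the F266A input 23 lay above (32.6% of all), with a median of 0.24 beside -0.12, and in F266A IP replicate 2 the count was 22 (45.1%), with a median of 0.38 beside -0.03. In F266A IP replicate 1 the count of 16 was near the share of all tested genes (52.5%), as was the median of 0.01 beside 0.02. Most genes of the list thus lay above the empty vector level in 5 of the 6 libraries of the tagged lines, all set against the same empty vector libraries. The endoderm sums were highest in the F266A input and IP replicate 2, and their part in these differences was not tested. In the WT libraries these sums (35.1 to 42.4 RPKM) overlapped those of the empty vector (37.4 to 45.3).

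Few single genes of this list passed the test. Gadd45a, a growth arrest and DNA damage gene, had input values of 2.60 RPKM for the empty vector, 3.25 for WT and 4.21 for F266A. Its IP values were 3.65 and 3.52 RPKM for the empty vector, 4.09 and 5.02 for WT and 10.3 and 6.65 for F266A. It was higher in the F266A than in the empty vector IPs by 1.02 ± 0.18 (SE, limma adjusted p = 0.0307). Epha2 codes for a receptor tyrosine kinase, and its inputs held 3.96 RPKM (empty vector), 3.86 (WT) and 4.02 (F266A). Its IP values were 3.42 and 3.62 for the empty vector, 5.79 and 4.895 for WT and 5.89 and 5.49 for F266A. Both WT IPs thus also lay above both empty vector IPs. The F266A IPs exceeded the empty vector IPs by 0.57 ± 0.12 (limma adjusted p = 0.0411). Both calls were lost with no filter on low values (adjusted p = 0.173 for Gadd45a and 0.145 for Epha2). These 2 of 29, beside 4.55% of all tested genes, were the only ones of the list called in this comparison with all libraries, and the median of the list was 0.20 beside -0.0050. Without F266A IP replicate 1 the F266A IPs hold 1 library, replicate 2. The largest differences of the list were then 1.22 for Phlda3, 1.17 for Btg2 and 1.08 for Polk. In replicate 1 the same genes lay only 0.22, 0.17 and 0.17 above the empty vector IPs, so their size rests on 1 library. Phlda3 codes for an inhibitor of AKT signalling, Btg2 for an antiproliferative protein and Polk for a DNA polymerase. Without F266A IP replicate 1 the difference was 0.74 for Gadd45a and 0.52 for Epha2. The Epha2 call was lost without any 1 of the 6 IPs, with adjusted p of 0.316 and 0.222 without empty vector IP replicates 1 and 2, 0.053 and 0.0537 without those of WT and 0.0651 without F266A IP replicate 2. The Gadd45a call was lost without either empty vector IP (0.197 and 0.182) or either WT IP (0.053 and 0.0537).

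Genes that control the p53 protein formed another list. Of 19 p53 regulators, which include kinases, ubiquitin ligases and the ribosomal proteins that bind MDM2, 1 was called between the F266A and the empty vector IPs, beside 4.55% of all tested genes. Rpl11 was lower, at 138.7 and 178.5 RPKM in the F266A IPs against 282.8 and 245.8 in the empty vector IPs (-0.74 ± 0.17, limma adjusted p = 0.0476). This call was lost without either empty vector IP (adjusted p = 0.348 and 0.202), either WT IP (0.0685 and 0.0693) or F266A IP replicate 1 (0.117), with centred (0.0556) or quantile normalized libraries (0.295), and with no filter (0.200). The median of the 19 was -0.07 in this comparison and -0.03 for the WT against the empty vector IPs. The most abundant of them, Npm1, which codes for a nucleolar partner of p19Arf, was at 124.3 to 348.5 RPKM. Among 20 cyclin, CDK and Rb family genes, 19 passed the expression minimum and none was called in the IPs of F266A against empty vector (4.55% of all called) or of WT against empty vector (0%), where their medians were 0.05 and 0.06. Cdk4, the target of INK4 proteins, was at 20.3 to 42.2 RPKM, in the libraries where Cdkn2a, Cdkn2b and Cdkn2c lay below 1. Cdkn2d, an INK4 gene beyond the members, was at 1.13 to 2.30 RPKM.

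The ESC markers were compared as a further list. Pou5f1 codes for the pluripotency factor OCT4, and its inputs held 55.5 (empty vector), 50.2 (WT) and 39.8 RPKM (F266A). Its IPs held 81.1 and 74.9 RPKM for the empty vector, 59.4 and 64.8 for WT and 36.3 and 52.0 for F266A, without overlap. It was lower in the F266A than in the empty vector IPs (-0.83 ± 0.18, SE, limma adjusted p = 0.0434), the 1 call among the 10 markers, beside 4.55% of all tested genes. The median of the 10 was -0.29 beside -0.0050, with 2 above 0. The Pou5f1 call was lost without either empty vector IP (adjusted p = 0.312 and 0.211), either WT IP (0.0671 and 0.0675) or F266A IP replicate 1 (0.0814), and with no filter (0.189) or quantile normalized libraries (0.118). The part of this difference in those of the members was not tested.

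The order of the libraries, which needs no test, was also counted. Among the 5 tested members, the F266A input was the highest input for 3 (Cdkn1a, Mdm2 and Ccng1), and it was so for 17 of the 29 p53 target genes (58.6%), beside 22.9% of all tested genes. F266A IP replicate 2 lay above replicate 1 for 4 of the 5 (all but Trp53) and 23 p53 target genes (79.3%), beside 43% of all. It was the highest of the 6 IPs for the same 4 and for 12 p53 target genes, beside 17.9%, and replicate 1 was the lowest for 2 of the 5 (Cdkn1a and Cdkn1b) and 7 p53 target genes, beside 17.3%. Both WT IPs lay above both empty vector IPs for 2 of the 5 (Mdm2 and Ccng1) and 19 p53 target genes (65.5%), beside 21.2%. Both F266A IPs lay above both empty vector IPs for these 2 and 12 p53 target genes, beside 25.9%. With so few members these counts are a description. Cdkn2a, Cdkn2b and Cdkn2c are not among the tested genes and are left out of them, and Cdkn2a would count by the way it was chosen.

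The gap between the F266A IPs ran the same way for the p53 targets among the members. Mdm2 was 0.83 and Ccng1 0.69 higher in replicate 2 than in replicate 1 on the log2 (RPKM + 1) scale, with 1.99% and 3.18% of tested genes showing larger gaps in that pair, whereas Trp53 differed by -0.39. The median gap over the 29 other p53 target genes was 0.39 beside -0.05 over all tested genes. Replicate 1 held lower Y-linked and endoderm sums than the other libraries of its line, and the part these differences play in the gap was not tested.

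Enrichment in the IPs was measured next, as log2 (RPKM + 1) of an IP minus that of the input of the same line. Trp53 scored 0.97 and 0.56 in WT, 1.07 and 0.68 in F266A and 0.97 and 0.80 in the empty vector. Mdm2 scored 0.90 and 0.96 in WT, 0.12 and 0.94 in F266A and 0.77 and 0.74 in the empty vector. Both genes thus scored above the median of tested genes, which was 0.26 to 0.39 over the IPs, also in the line without tagged WDR5, with F266A IP replicate 1 the exception for Mdm2. Cdkn1a scored 0.20 and 0.29 in WT, -0.75 and 0.53 in F266A and 0.44 and 0.41 in the empty vector. Ccng1 scored 0.36 and 0.42 in WT, -0.21 and 0.48 in F266A and 0.28 and 0.40 in the empty vector.

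**Figure D4:**
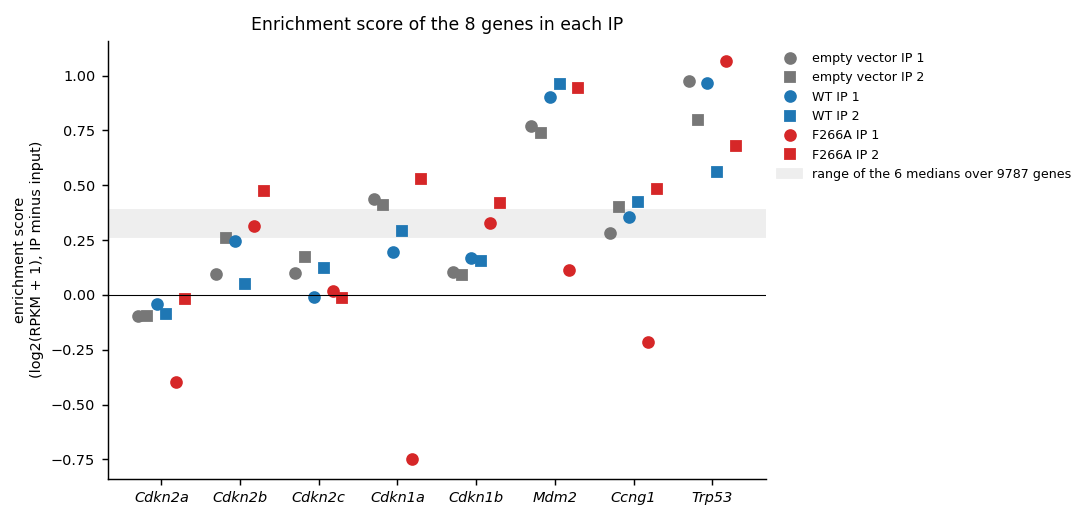
Enrichment scores (log2 of RPKM + 1, IP minus input of the same line) of the 8 genes in the 6 IPs, circles for replicate 1 and squares for replicate 2, with a grey band from the lowest to the highest of the 6 library medians over 9787 tested genes. Trp53 scores between 0.56 and 1.07 in all 6 IPs, and F266A IP 1 scores -0.75 for Cdkn1a.

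Over all lines, Trp53 (0.84 ± 0.13, SE, limma adjusted p = 0.0037) and Mdm2 (0.74 ± 0.17, adjusted p = 0.0085) were higher in the 6 IPs than in the 3 inputs. They were 2 of the 5 members tested, and 56.4% of all tested genes were likewise higher, with a median difference of 0.30. An estimated 20.1% to 22.6% of mapped reads fell on genes in the inputs and 27.2% to 29.5% in the IPs, those of the empty vector included. The part of this share in the general rise was not tested. With each library centred on its median, 0.94% of genes were higher and neither Trp53 (0.53, adjusted p = 0.0859) nor Mdm2 (0.43, adjusted p = 0.212) passed. Relative to the median, Trp53 was higher by 0.54 and Mdm2 by 0.44, while Cdkn1a (-0.11), Cdkn1b (-0.09) and Ccng1 (-0.01) were near it. Without F266A IP replicate 1, Cdkn1a and Ccng1 were called as well (0.40 each, adjusted p = 0.0064 and 0.0083), beside 58.4% of genes. All 6 IPs lay above all 3 inputs for 2 of the 5, Cdkn1b and Trp53, beside 42.2% of genes. Of the p53 target list, 11 of 29 were higher in the IPs, among them Perp (0.53), Gadd45a (0.52) and Aen (0.50), and the list's median of 0.24 lay under that of all genes. Chek1 (0.64), Chek2 (0.56) and Npm1 (0.66) were among 15 of 19 p53 regulators that were higher, with a median of 0.39. With centred libraries 0 of the 29 p53 target genes and 0 of the 19 regulators were called, 11 and 14 lay above 0, and the medians were -0.07 and 0.08 beside -0.01 over all genes.

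None of the 5 tested members passed the test of a difference in enrichment between the lines. The difference of Mdm2 was 0.40 ± 0.41 (SE) for WT against F266A and 0.18 ± 0.41 for WT against the empty vector, with limma adjusted p of 0.9998 and 1. For Cdkn1a the values were 0.35 ± 0.58 and -0.18 ± 0.58, and for Trp53 -0.11 ± 0.33 and -0.12 ± 0.33. Without F266A IP replicate 1, WT against F266A gave -0.01 for Mdm2, -0.28 for Cdkn1a and 0.09 for Trp53. These contrasts rest on inputs without replicates and called 0% of genes, also for F266A against the empty vector, with 259, 173 and 243 genes at an unadjusted p under 0.05. Differences well above these standard errors could thus go undetected.

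By the rule of the study a gene is enriched when the lower WT score is above 0 and above every F266A and empty vector score. It was applied here to the deposited gene symbols with a pseudocount of 1. The study used an assembled transcriptome that also held UCSC genes and predicted transcripts, so the share below is not its own count. None of the 8 members met the rule, and 4.79% of the 24132 gene symbols did. Mdm2 missed it because its score in F266A IP replicate 2 (0.94) exceeded the lower WT score (0.90), and it met the rule without that library, without WT IP replicate 1, or with centred libraries. With F266A in the place of WT, Cdkn2b and Cdkn1b met the rule, as did 13.6% of symbols.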

How the data were processed

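The members and the gene lists were chosen with earlier results of these data known. The authors used TopHat 1.1.3 for alignment (mm9), and the deposited values are their RPKM per gene symbol. RPKM are not counts, so no count test was run, and depth was estimated from the smallest steps of RPKM times exon length. Differences in library composition remain in these values. Genes that reached an RPKM of 1 in fewer than 2 libraries were left out, and the remaining 9787 were tested in limma 3.58.1 (R 4.3.3, functions lmFit, contrasts.fit and eBayes with trend) on log2 (RPKM + 1), with 1 coefficient per line and fraction. Of the 8 members, 5 passed (Cdkn1a, Cdkn1b, Mdm2, Ccng1, Trp53). The spread came from the 3 pairs of IPs, so that the lone inputs were assumed to vary like the IPs. The threshold was an adjusted p (Benjamini-Hochberg over all tested genes) under 0.05. A fold change on this scale is understated for low genes. The fit was also run on simulated data in which the inputs were given the spread of the IP pairs. Such data cannot check the assumption that the lone inputs vary like the IPs. The text names the members, the 5 genes most like Cdkn2a, Wdr5 and, of each list, some of the genes past the threshold (up to 5 by size) or highest by mean RPKM (up to 3). Phlda3, Btg2, Polk, Gata4, Dab2, Col4a2, Sparc, Lamc1, Lamb1, Lama1, Ttr and Afp were named after their values were seen. Positions, starts and sequences are from GENCODE M1 and mm9. The remaining steps ran in Python 3.11.15 (numpy 2.4.6, pandas 2.3.3, matplotlib 3.10.9). Alternatives were pseudocounts of 0.1 and 0.01, no filter, quantile normalization, centred libraries, no trend, a replicate block and leaving out each IP in turn, and for the rule of the study also a common input and a margin of 0.5. No pair of libraries held equal values in every row.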

Additional observations from a re-analysis of the deposited data

How the results depend on the processing

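Leaving out 1 IP at a time gave 2 to 4 called members for the IPs against the inputs, 0 to 3 for the F266A against the empty vector IPs, 0 to 2 for the WT against the F266A IPs, 0 to 1 for the F266A against the empty vector inputs and 0 to 1 members meeting the rule of the study. For the IPs against the inputs the count was 1 with no filter on low values (Trp53), and 0 with quantile normalization and 0 with centred libraries. With centred libraries 1 member, Mdm2, met the rule. The labels do not say whether the replicate numbers pair the IPs. Deviations of same-numbered IPs correlated by 0.258 (WT and F266A), 0.112 (WT and empty vector) and 0.0116 (F266A and empty vector). These values do not settle it. With the replicate block 1 member was called in the F266A against the empty vector IPs, Mdm2 (0.90, limma adjusted p = 0.0423), and no other comparison changed its count of called members.

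Over the 5 tested members, the 10 comparisons and 14 alternatives, 34 of 700 differences changed sign, none of them called with all libraries, and 17 of the 34 belong to differences given in the report. Among the latter, with quantile normalization these were Cdkn1a (-0.15) and Ccng1 (-0.19) for IPs against inputs and Trp53 (0.18) for F266A against empty vector IPs, and with centred libraries Cdkn1a (-0.12), Cdkn1b (-0.10) and Ccng1 (-0.0219) for IPs against inputs. Leaving out 1 IP moved Cdkn1a from -0.0259 to 0.40 for IPs against inputs, from -0.49 to 0.78 for F266A against empty vector IPs, from -0.91 to 0.37 for WT against F266A IPs and from -0.28 to 0.99 for the enrichment of WT against F266A. It moved Mdm2 from -0.78 to 0.042 for WT against F266A IPs and from -0.0103 to 0.82 for that enrichment. Trp53 ranged from -0.36 to 0.026 for F266A against empty vector IPs, from -0.35 to 0.0584 for WT against empty vector IPs, from -0.31 to 0.095 for the enrichment of WT against F266A and from -0.32 to 0.0818 for that of WT against empty vector. All genes called ranged from 0 to 607 for F266A against empty vector IPs (445 as reported) and from 0 to 196 for WT against F266A IPs (114), and p53 target genes called from 0 to 7 and 0 to 1.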
